A study of Mus musculus with 168 samples.

Results

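Potassium channel genes were taken as every row of the deposited expression table whose symbol starts with Kcn and whose RPKM (read counts scaled to transcript length and to the library's mapped reads) was 1 or more in at least 3 of 168 libraries. The members were thus chosen by their measured RPKM over all libraries. The rule kept 85 of 95 Kcn rows, out of 39410 rows in the table. The libraries came from 34 mice of the delta7 model of spinal muscular atrophy (SMA), in which motor neurons degenerate because survival motor neuron protein is scarce. SMA mice were Smn-/- and controls were Smn+/+ littermates, and both genotypes carried the human transgenes SMN2+/+ and SMN∆7+/+. Neurons were laser-captured from frozen sections at postnatal days 2, 5 and 10, with about 150 cells pooled in a tube. Ocular (oculomotor and trochlear), facial, vagus, hypoglossal and lumbar spinal motor neurons were sampled, together with neurons of the red nucleus, a midbrain group that projects to the spinal cord. Ocular libraries of day 2, and of SMA mice at day 5, were all labelled with both nuclei. Some of controls at day 5, and of both genotypes at day 10, were labelled with a single nucleus. The part of this mix in ocular differences was not tested. There were 36 groups, each of 3 to 7 mice.

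Potassium channels let potassium leave the neuron, which sets the resting potential, ends the action potential and shapes the pause before the next. Kv1 channels open at low voltages and cluster beside the node of Ranvier with Kv beta subunits, Kv3 channels open and close fast enough for high-frequency firing, and Kv4 channels with KChIP subunits carry the transient A current. Silent subunits (the Kcnf, Kcng, Kcns and Kcnv genes) form no channel alone and alter Kv2 channels, which motor neurons hold at the large cholinergic C boutons. Inward rectifiers (Kir, the Kcnj genes) and tandem-pore leak channels (K2P, the Kcnk genes) act near rest, SK and BK channels are opened by calcium, and KCNQ channels carry the M current that acetylcholine closes.

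Control neurons held the transcripts their labels imply. Slc5a7, the choline transporter, had a mean of 61.9 RPKM or more in controls of each motor population and 2.39 in the red nucleus, where Pou4f1, a red nucleus transcription factor, had a mean of 228 against at most 1.95 in the motor populations. The ocular sample of SMA mouse 250 at day 10 stood apart, with 57.4 RPKM of Pou4f1 and 119 of Slc17a6, against at most 16.4 and 21.5 in the other ocular SMA samples of that age. Without that mouse, ocular neurons still had 0 member calls between genotypes at day 10 by limma (4 of 59 at an unadjusted p under 0.05, as with it). Between ages in SMA mice they had 15 calls in place of 17. Mouse Smn1 had a mean of 26.7 ± 12.6 RPKM (SD, n = 72) in control samples and 0.257 ± 0.725 (SD, n = 88) in SMA samples. Depth, estimated from low RPKM values of single-transcript genes, was 0.342 to 16.3 M reads per library, with a median of 5.89. The lowest was a red nucleus library of control mouse 252 at day 10, and the next lowest held 1.44 M reads. Transcripts of other cells were captured too. The sum of 7 astrocyte markers reached 1848 RPKM in the highest of the control group means, while that of 7 microglial markers was 5.84 to 42.5. In such pooled samples, fewer cells of a type and less RNA per cell cannot be told apart.

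The members spanned abundant and nearly silent channels. Just inside it were Kcnk15, Kcnmb1 and Kcnq1, which reached 1 RPKM in 3 libraries, and Kcnk6 and Kcnk7, which did so in 4. Just outside were Kcne1 and Kcnj15 with 2 libraries and Kcnj1, Kcnj4, Kcnk16 and Kcnk5 with 1, while Kcna7, Kcng3, Kcnk18 and Kcnv2 reached it in 0. Of the 85 members, 17 were at 1 RPKM or more in all 168 libraries and 64 reached it in each of the 6 populations. The sum over members took 0.0981% to 0.202% of all RPKM in the means of the control groups. That sum was highest in lumbar controls at day 10, at 1327 ± 76.1 RPKM (SD, n = 4).

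The most abundant transcripts were auxiliary subunits rather than pores. Averaged over populations, control levels were highest for Kcnip1 (102 RPKM) and Kcnip4 (74.2), which encode KChIP partners of Kv4. Kcnmb4_ann1, the larger of 2 rows for the neuronal BK beta subunit, followed at 47.3, then the Kv beta subunits Kcnab1 at 44.5 and Kcnab2 at 38.9. The most abundant pore subunits were the Kv3 gene Kcnc4 at 37.8, the Kv1 gene Kcna1 at 35.2 and the acid-sensitive leak channel Kcnk3 at 32.4. Kcnn2, an SK channel, and Kcnc1, another Kv3 gene, had 26.4 and 25.7. RPKM is scaled to gene length, so levels of different genes can be set side by side, as far as the authors' lengths fit the transcripts present.

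**Figure D1:**
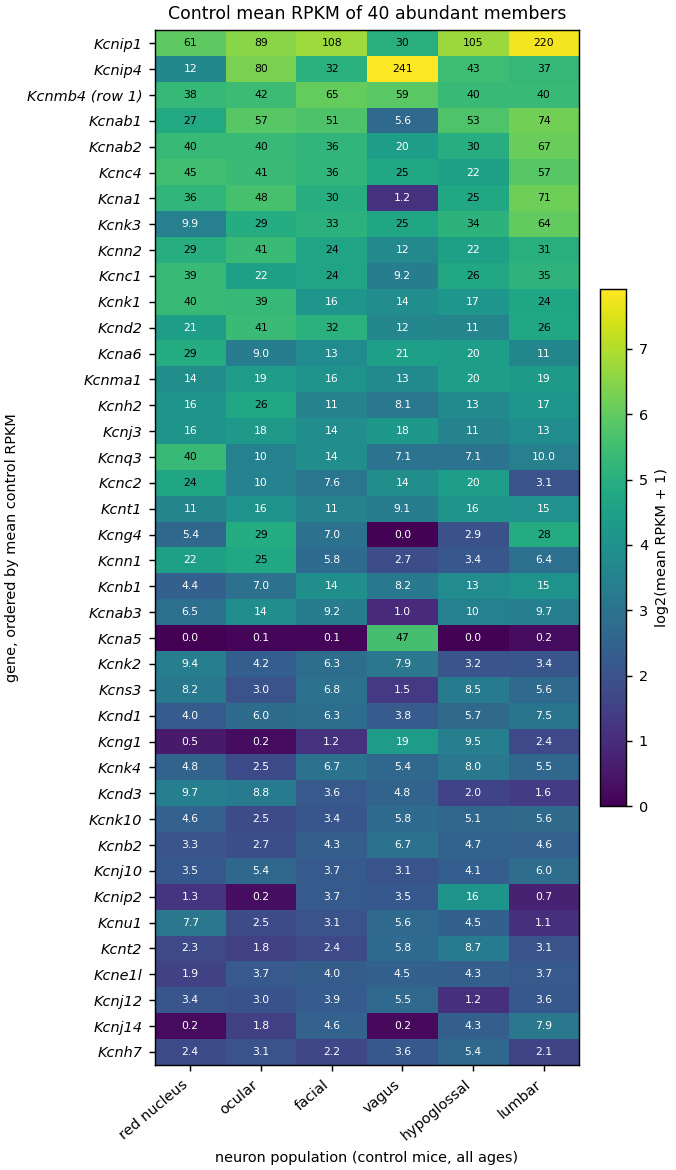
Mean RPKM of 40 abundant members (rows) in control mice of each population (columns, 11 to 13 mouse samples over the 3 ages), coloured by log2(mean RPKM + 1) with the mean printed in each cell. Kcnip1 is brightest in lumbar neurons (220 RPKM) and Kcnip4 in vagus neurons (241), and Kcna5 is dark in all columns but the vagus.

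Several channels that motor neurons are known for had low levels in these libraries. Kcna2, the usual Kv1 partner of Kcna1, had control population means of 0.236 to 2.55 RPKM. Kcnn3, the SK channel of small motor neurons, had 0.749 to 2.18, and the leak channel Kcnk9 had at most 1.06. Among G protein-gated rectifiers Kcnj3 had 10.6 to 18.2, whereas Kcnj6 had at most 0.824 and Kcnj9 had 0.538 to 3.80. The pericyte gene Kcnj8 had at most 1.47, and of the microglial channels Kcna3, Kcnk6, Kcnk13 and Kcnn4 none passed 0.631 except Kcnk13, at 3.65 in the vagus. The glial rectifiers Kcnj10 and Kcnj16 had 3.12 to 6.05 and 1.18 to 2.12.

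Populations were told apart by most of these channels. In controls, 57 of 75 members tested differed between the 6 populations (limma F test on log2(RPKM + 1), ages weighted equally, adjusted p under 0.05), beside 44.5% of all genes. Among the members with the largest F were Kcna5 (648), Kcna1 (212), Kcnip4 (134), Kcnab1 (78.4) and Kcnk3 (70.1). All 8 tested leak channels, all 3 Kv4 genes and all 3 Kv beta genes were among the 57. Kcnt1, a sodium-activated channel with means of 9.13 to 16.0 RPKM, did not pass, with an adjusted p of 0.0837.

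Vagus motor neurons stood furthest from the others. Against the mean of the other 5 populations, 13 members were higher and 24 lower of 75 tested, beside 15.5% and 12.2% of all genes. Kcna5, a delayed-rectifier Kv1 gene, had 27.0 RPKM at the lowest, 43.6 at the median and 70.1 at the highest in 11 vagus samples. In the 61 control samples of the other populations it never passed 0.840, so the groups did not overlap in any age. The difference was 5.36 ± 0.09 (SE) on the log2(RPKM + 1) scale. Kcna5 passed the filter of the control fit through its vagus samples alone, so this difference and its F over populations are a description. Kcna1 had the opposite pattern. Its lowest, median and highest values were 0.143, 0.950 and 3.24 RPKM in vagus neurons and 22, 59.6 and 133 in lumbar neurons. It differed by -4.03 ± 0.13 between the vagus and the other 5 populations.

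Kcna5 and Kcna1 are neighbours on one chromosome. In GENCODE M21 on GRCm38, Kcna5 lies at chr6:126532551-126535412, Kcna1 at chr6:126640397-126646384 and Kcna6 at chr6:126708329-126740674, all on the minus strand. Kcna6 had a mean of 21.0 RPKM in the vagus, between 9.02 in ocular and 28.9 in red nucleus neurons, unlike either neighbour. Exons annotated on the opposite strand overlap some members (Kcna6, Kcnab1, Kcnab3, Kcnip4, Kcnk1 and Kcnmb4 among them). Whether counting used strand is not given in the sources used here. On the same strand, exons of Gm16334 overlap Kcnab2 and those of Catsperz overlap Kcnk4. RefSeq start-site sequences were matched for 61 member genes (86 windows, GRCm38.p6), among them Kcna5 but not Kcna1. The 250 bases before the Kcna5 start are shown because Kcna5 had the largest F. They run 5′ to 3′ from the minus strand of chr6:126535556-126535805 and are all in lower case, since none of the 5 motifs searched on both strands (the TATA box TATAAA, the NF-Y box CCAAT, the E-box CACGTG, the Sp1 box GGGCGG and the nuclear receptor site AAGGTCA, none of which holds another) occurs in the 300-base window.
Kcna5: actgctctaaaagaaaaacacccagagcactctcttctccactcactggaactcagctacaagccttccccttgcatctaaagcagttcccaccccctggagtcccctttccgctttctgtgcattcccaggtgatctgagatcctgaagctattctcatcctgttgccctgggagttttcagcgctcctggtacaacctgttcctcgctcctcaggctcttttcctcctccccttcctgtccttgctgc

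Further vagus differences lay in silent, Kv4-associated and Kv beta subunits. The silent subunit Kcng1 had 8.75, 20.4 and 36.9 RPKM (lowest, median, highest) in the vagus, against 1.41, 7.75 and 23.9 in the hypoglossal nucleus and at most 9.95 elsewhere, a difference of 3.00 ± 0.22 from the other 5. Kcnip4 had 127, 247 and 308 RPKM in the vagus, above every value of the other populations, of which the highest was also 127 when rounded, in an ocular sample. The Kv beta gene Kcnab1 was low, with 2.16, 4.84 and 13.9 RPKM against medians of 28.5 or more in the other populations. Kcnab3, Kcng4, Kcnn1, Kcns3, Kcnc1 and Kcnn2 were also lower (-2.40 to -1.17), while Kcnj5, a G protein-gated rectifier, Kcnk13 and Kcnf1 were higher (1.55, 1.23 and 0.99). Markers of other cells differed in the vagus too. Of the microglial markers 3 of 7 were higher and 0 lower, and their summed control means were 42.5 RPKM at day 2, 19.0 at day 5 and 39.2 at day 10, against at most 29.9, 19.6 and 18.5 elsewhere. Of 4 inhibitory neuron markers 3 were higher. Of 7 astrocyte markers 3 were higher and 1 lower, while their sum was lowest in the vagus, at no more than 691 RPKM in control group means against 800.2 or more elsewhere. The part of these transcripts in the vagus differences, Kcnk13 included, was not tested.

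**Figure D2:**
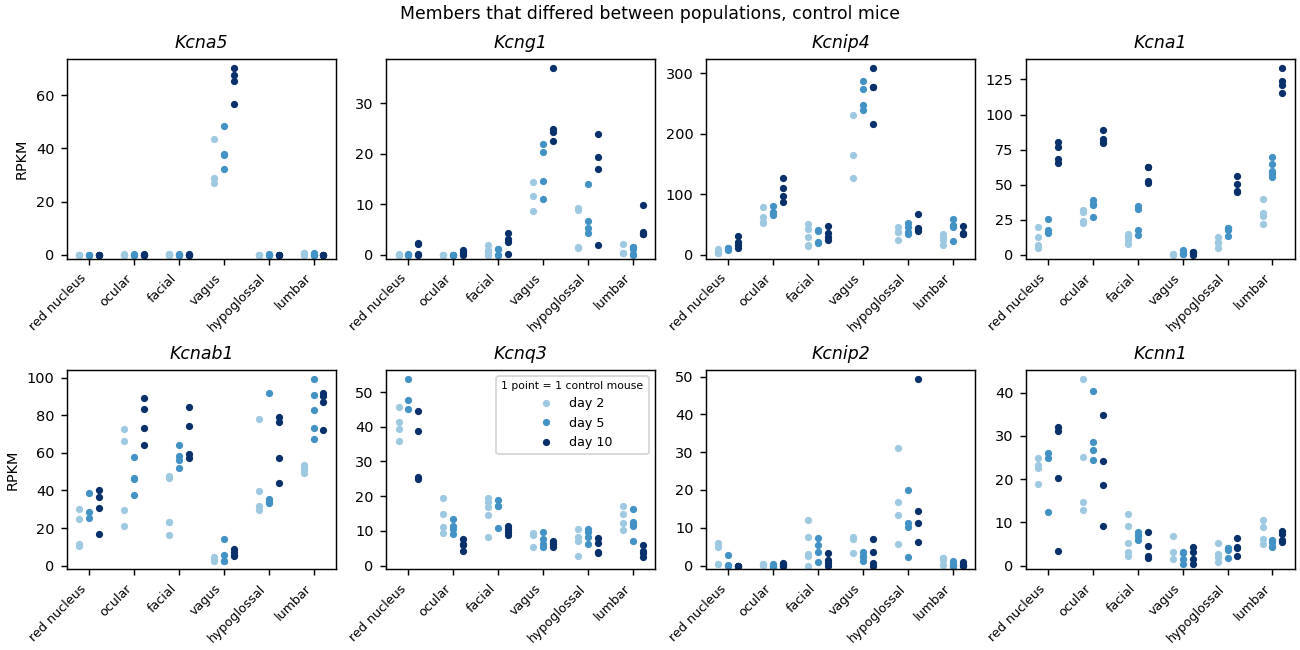
RPKM of 8 members (panels) in each control mouse (points) by population and age (shade). Kcna5 lies between 27.0 and 70.1 RPKM in the vagus and under 1 elsewhere, Kcna1 and Kcnab1 are lowest in the vagus, Kcnq3 is highest in the red nucleus and Kcnip2 in the hypoglossal nucleus.

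Red nucleus neurons differed from the motor neurons most in Kcnq3 and Kcnip4. Here 14 members were higher and 12 lower than the mean of the other 5, beside 8.82% and 13.1% of all genes. Kcnq3, an M-current subunit, had 24.9, 41.4 and 53.9 RPKM (lowest, median, highest, n = 11) and at most 19.4 in any motor sample of controls, a difference of 2.07 ± 0.13. The SK gene Kcnn1 and the Kv4 gene Kcnd3 were higher by 1.59 ± 0.22 and 1.22 ± 0.15, although both were also high in ocular neurons. Kcnip4 had a median of 11.1 RPKM and differed by -2.52 ± 0.14. The leak channel Kcnk3 had 5.09, 8.28 and 19.2 RPKM and was lower by 1.75 ± 0.12 on the log2 scale, and Kcng1 and Kcnj14 were lower as well, by 1.58 and 1.42. Kcnj14 is a rectifier of motor neurons, and its highest red nucleus value was 0.851.

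Ocular neurons had the most members above the others. Of 75 tested, 20 were higher and 14 lower, beside 7.77% and 9.95% of all genes. Kcnn1 had 9.26, 24.8 and 43.2 RPKM (lowest, median, highest, n = 12), and differed by 1.87 ± 0.21. Kcng4 (1.5), Kcna1 (1.32), Kcnd2 (1.11), Kcnd3 (1.09) and the ERG gene Kcnh2 (1.0) were also higher, with SE of 0.12 to 0.16. Kcnd2 and Kcnd3 are 2 of the 3 Kv4 pore genes. Kcng1, Kcnip2, Kcnv1 and Kcnh1 were lower, by 1.77, 1.52, 1.22 and 1.14 on the log2 scale.

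Facial neurons had the fewest members apart from the average of the others. They had 9 members higher and 10 lower, beside 5.84% and 3.42% of all genes. The largest positive differences were Kcnj14 (0.78 ± 0.15), the silent subunit Kcns1 (0.75 ± 0.21) and Kcnd2 (0.72 ± 0.12). Lower were Kcna5 (-1.05), Kcnj9 (-1.02) and Kcng1 (-0.90), and the first of these only restates the vagus level, which enters the mean of the other 5. In Kcna1 the direction depends on the scale: the facial mean of RPKM was below that of the other 5 (31.1 against 36.2) while its log2 difference was 0.39 ± 0.12, and the red nucleus had the same discrepancy (34.5 against 35.5, with 0.37 ± 0.13).

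Hypoglossal neurons were marked by Kcnip2. They had 13 members higher and 13 lower, beside 7.11% and 3.68% of all genes. Kcnip2, the KChIP known best from heart, had 2.27, 12.3 and 49.4 RPKM (lowest, median, highest, n = 12) and a median of at most 3.24 in the other populations, a difference of 2.67 ± 0.27. Its spread between hypoglossal mice was wide. Kcng1 and the sodium-activated channel Kcnt2 were higher by 1.57 ± 0.22 and 1.40 ± 0.17. The lower members included Kcnn1 (-1.19), the strong rectifier Kcnj12 (-1.12), Kcnd3 (-1.04) and Kcnd2 (-1.01), so that hypoglossal neurons had the lowest Kcnd2 mean (11.1 RPKM) and ocular neurons the highest (40.9).

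Lumbar neurons had the highest mean levels of Kcna1, Kcnc4 and Kcnk3, the pore genes most abundant overall. They had 16 members higher and 12 lower, beside 9.59% and 8.8% of all genes. Kcna1 (1.92 ± 0.12), Kcng4 (1.73 ± 0.15), Kcnip1 (1.70 ± 0.12) and Kcnk3 (1.43 ± 0.11) were among those with the largest differences. Kcnip1 had at least 160 RPKM in every lumbar sample, with a median of 215, and Kcnk3 had 47.8, 66.2 and 76.7 RPKM. Kcnc2, a Kv3 gene, went the other way, with 0.536, 2.55 and 10.9 RPKM and a difference of -1.93 ± 0.16. Kcnd3 and Kcnu1 were lower by 1.25 and 1.15.

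Between day 2 and day 10 a small set of channels was called as rising in 5 populations, the vagus not among them. In controls 22 members rose and 9 fell in at least 1 population, and 0 did both. Of these, 6 rose in 5 populations, among them Kcna1, Kcnab2 and Kcnab3 (Kv1 and its beta subunits), Kcng4 (silent subunit) and Kcnk1 (leak channel). Kcns3, another silent subunit, rose in 4. Kcng4 did not pass the filter in the vagus and was not tested there. The calls, by limma with adjusted p under 0.05, were 11 up and 4 down of 66 members tested in the red nucleus (5.72% and 5.42% of all genes), 12 and 5 of 59 in ocular neurons (4.38% and 3.64%), and 12 and 1 of 69 in facial neurons (2.6% and 2.76%). In hypoglossal neurons 9 of 67 rose and 1 fell (2.43% and 2.68%), and in lumbar neurons 13 of 65 rose and 3 fell (4.76% and 7.25%). In the vagus 1 rose and 1 fell of 63 (0.581% and 0.437%).

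Kcng4 had the largest change. In lumbar controls it had 0.363, 0.411, 0.494 and 1.30 RPKM at day 2, then 1.26, 2.35, 3.32, 6.92 and 6.95 at day 5, and 77.2, 84.7, 86.5 and 93.9 at day 10. Ocular controls went from 0, 0.0399, 0.604 and 1.27 at day 2 to 72.1, 82.9, 88.0 and 88.6 at day 10. Most of the rise lay between days 5 and 10, and day 2 and day 10 did not overlap. It measured 5.75 ± 0.48 in lumbar, 5.91 ± 0.53 in ocular, 4.51 ± 0.31 in facial, 3.89 ± 0.42 in red nucleus and 3.08 ± 0.32 (SE) in hypoglossal neurons on the log2(RPKM + 1) scale, with adjusted p of 2.0e-06 or less in limma. Day 10 levels were lower in the last 3, at 18.1 to 26.6, 8.20 to 20.3 and 4.37 to 15 RPKM. In the vagus the highest of 11 control values was 0.0798, where 3 reads at the estimated depths would give a median of 0.118.

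The Kcng4 start site is shown because this gene separated both the ages and the populations. Kcng4 lies at chr8:119623854-119635680 on the minus strand of GRCm38. The 250 bases before its RefSeq start, from the minus strand of chr8:119635681-119635930, hold 1 of the motifs searched, a CCAAT given in capitals. CCAAT occurs on either strand in 37.4% of all 32851 windows of 300 bases and in 32.6% of the 86 member windows, and no test was made on it.
Kcng4: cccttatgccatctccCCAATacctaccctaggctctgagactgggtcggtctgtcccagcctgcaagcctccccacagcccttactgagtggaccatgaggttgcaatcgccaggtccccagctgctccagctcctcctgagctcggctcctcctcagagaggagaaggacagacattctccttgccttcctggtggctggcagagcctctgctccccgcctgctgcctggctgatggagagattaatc

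Kcna1 and its beta subunits rose together. Kcna1 in lumbar controls had 22, 27.9, 29.8 and 40.2 RPKM at day 2 and 115, 121, 124 and 133 at day 10, a rise of 2.04 ± 0.15. Facial controls had 7.72, 8.19, 11.4, 13.6 and 15.1, then 51.2, 52.8, 62.7 and 62.7, a rise of 2.29 ± 0.24. No day 2 value reached a day 10 value in the 5 populations with a call. Kcnab2 rose by 1.66 to 2.55 in the same 5 populations, in lumbar controls from 30.9, 37.6, 38.0 and 44.7 RPKM to 117, 119, 120 and 129. Kcnab3 rose by 1.65 to 3.08, with the ocular call lost without mouse 244, 247 or 252. Over all alternative runs that ocular call was lost in 5 and kept in 9. Kcnab1 passed in facial (1.21) and lumbar (0.72) neurons. Kcna2 passed in 0 populations, and Kcna6 fell in ocular neurons by 2.12 ± 0.41, from a mean of 16.8 to 2.78 RPKM.

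Of the Kv3 genes, Kcnc1 rose in the red nucleus (1.52), facial (0.96) and lumbar neurons (1.0). Kcnc2 rose in the red nucleus, from 4.49, 10.6, 12.9 and 27.7 RPKM to 32.3, 35.4, 38.3 and 61.6. Kcnc4, the most abundant of the family, had no call, with differences of -0.57 to 0.89.

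**Figure D3:**
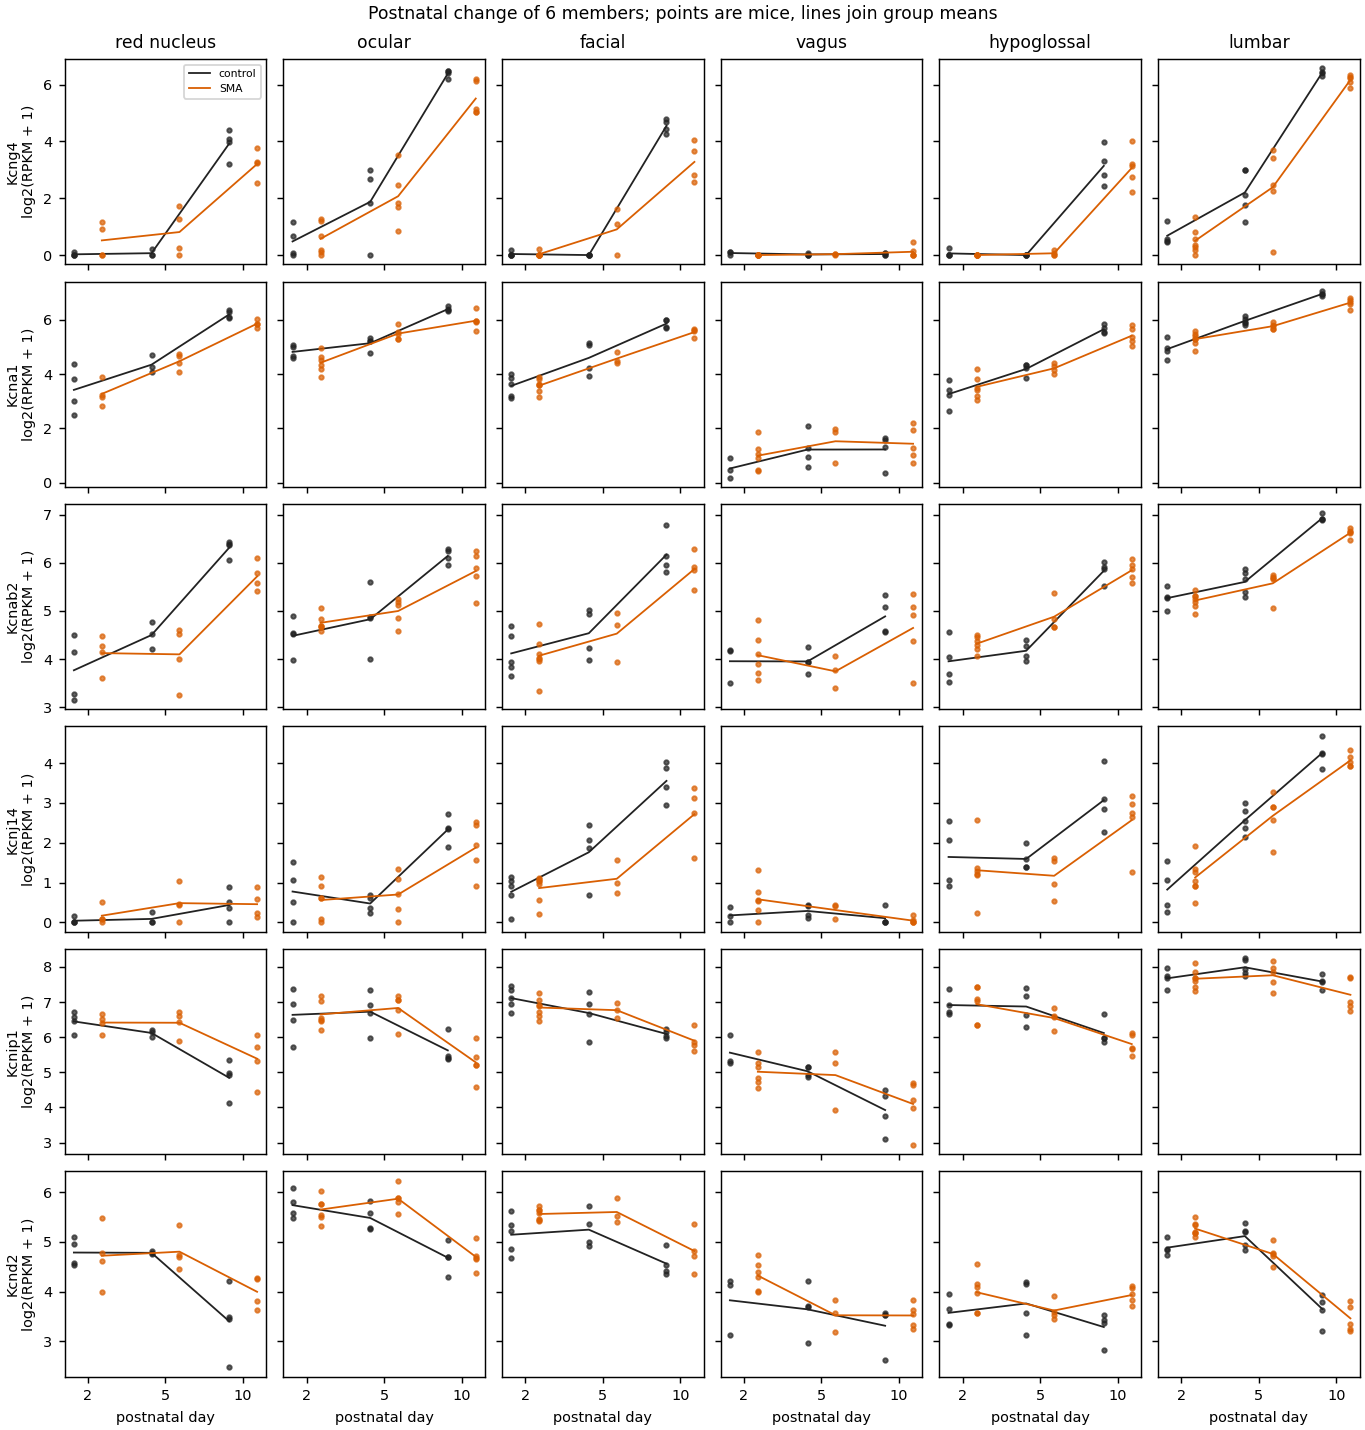
Log2(RPKM + 1) of 6 members (rows) in each mouse (points) by population (columns), postnatal day (spaced evenly, not to scale) and genotype, with lines through group means. Kcng4, Kcna1 and Kcnab2 climb to day 10 in the 5 columns other than the vagus. In the vagus no rise of Kcna1 or Kcnab2 passed, and Kcng4 was not tested. Kcnj14 climbs in the lumbar, facial and ocular columns. In controls Kcnip1 declines in the red nucleus, facial and vagus columns, and Kcnd2 in the lumbar, ocular and red nucleus columns.

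Rectifier and leak genes rose in fewer populations. Kcnj14 rose in lumbar (3.44 ± 0.32), facial (2.78 ± 0.39) and ocular neurons (1.56 ± 0.39). Its lumbar values were 0.192, 0.343, 1.10 and 1.94 RPKM at day 2 and 13.5, 17.9, 18.2 and 24.7 at day 10. Kcnj3 rose in ocular (1.0) and lumbar (1.34) neurons, and Kcnj9, its channel partner, in hypoglossal neurons (2.05). Kcnk1 rose by 1.0 to 2.13 in 5 populations, Kcnk3 in ocular (0.93) and facial (1.19) neurons, Kcnk2 in ocular (1.87) and Kcnk12 in hypoglossal neurons (1.82). Other rises in 1 population were those of Kcnip4 and Kcnh1 in the red nucleus (1.90 and 1.41), Kcnh2 in hypoglossal (1.21) and Kcng1 in lumbar neurons (1.92).

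The 2 members that fell in 3 populations were the Kv4 gene Kcnd2 and the KChIP gene Kcnip1. In controls 15 of 389 member results fell, beside 0.437% to 7.25% of all genes in single populations. The falls thus cannot be read as particular to the members. The other Kv4 and KChIP members (Kcnd1, Kcnd3, Kcnip2, Kcnip3 and Kcnip4) had no fall in controls, and Kcnip4 rose in the red nucleus. Kcnd2 fell in lumbar, ocular and red nucleus neurons by 1.24 ± 0.17, 1.06 ± 0.20 and 1.39 ± 0.33. Lumbar values were 25.8, 27.6, 28.1 and 33.2 RPKM at day 2 and 8.23, 11.4, 12.9 and 14.3 at day 10. Kcnip1 fell in the red nucleus (-1.60), facial (-1.02) and vagus neurons (-1.63), but in lumbar neurons, where it was highest, it had 160 to 248 RPKM at day 2 and 161 to 221 at day 10. Kcnq3 fell in lumbar (-1.57) and ocular neurons (-1.05), and Kcnt2 in the same populations (-0.95 and -1.50). Kcnmb4_ann1 fell in the red nucleus from 41.2, 53.5, 54.9 and 70.5 RPKM to 3.75, 6.25, 18.3 and 22.2. Kcnh4 (red nucleus), Kcnmb2 (ocular) and Kcne1l (hypoglossal) were the remaining falls. Of the falls, the Kcnq3 call in ocular neurons was lost without mouse 14, 247, 252, 253 or 28. The Kcnh4 call was lost without 14, 244, 247, 252, 253 or 254. The Kcnmb2 call was lost without 247, 252, 26 or 28, and Kcne1l without 240, 244, 247 or 252. Over all alternative runs these 4 calls were lost in 6, 7, 6 and 7 and kept in 8, 6, 8 and 7. The red nucleus Kcnd2 call was lost in 1 run and kept in 13.

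In the vagus the only calls were a rise of Kcna5 and a fall of Kcnip1. Kcna5 had 27.0, 28.9 and 43.6 RPKM at day 2 and 56.8, 65.3, 67.5 and 70.1 at day 10, a rise of 0.98 ± 0.22 with an adjusted p of 0.027 in limma. Kcnip1 had 37.8, 39.2 and 66.2 RPKM, then 7.54, 12.6, 19.2 and 21.7. Neither was stable: leaving out mouse 247, 254 or 26 left 0 calls, and leaving out mouse 240, 244 or 252 left 1. With 3 day 2 mice the vagus also had the smallest group, and fewer calls there do not show a smaller change. With the mouse as a replicate block, in 1 fit of all 160 samples, the vagus had 4 calls. That fit also changed the filter and the shared spread, so its calls cannot be credited to the block alone.

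Whether the change itself differed between populations was tested directly. The population by age F test in controls passed for 8 of 75 members, beside 3.57% of all genes. They included Kcng4 (F 35.3), Kcnj14 (14.7), Kcna1 (6.13), Kcnj5 (5.65), Kcng2 (5.34), Kcnc2 (5.2) and Kcna5 (4.75). The first 3 had rises outside the vagus. Kcna5 entered this fit through its vagus samples alone, so its F here is a description. Kcnab2, Kcnab3 and Kcnk1, which rose in 5 populations, did not pass (adjusted p 0.104, 0.370 and 0.377 in the limma F test). For these a different change in the vagus was not shown. Kcnj5 had 0, 0.812 and 3.46 RPKM in the vagus at day 2 and 5.06, 5.90, 6.77 and 6.96 at day 10, with no call. In ocular neurons it had 0, 1.99, 2.63 and 4.59, then 0.321, 0.614, 0.905 and 0.996, so its group means went opposite ways. Only 4 members passed without mouse 244 or 252, and 5 without mouse 247 or 254. Kcng4 and Kcnj14 passed in every alternative run, and each of the other 5 named here was lost without at least 1 of mice 244, 247, 252 and 254.

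**Figure D4:**
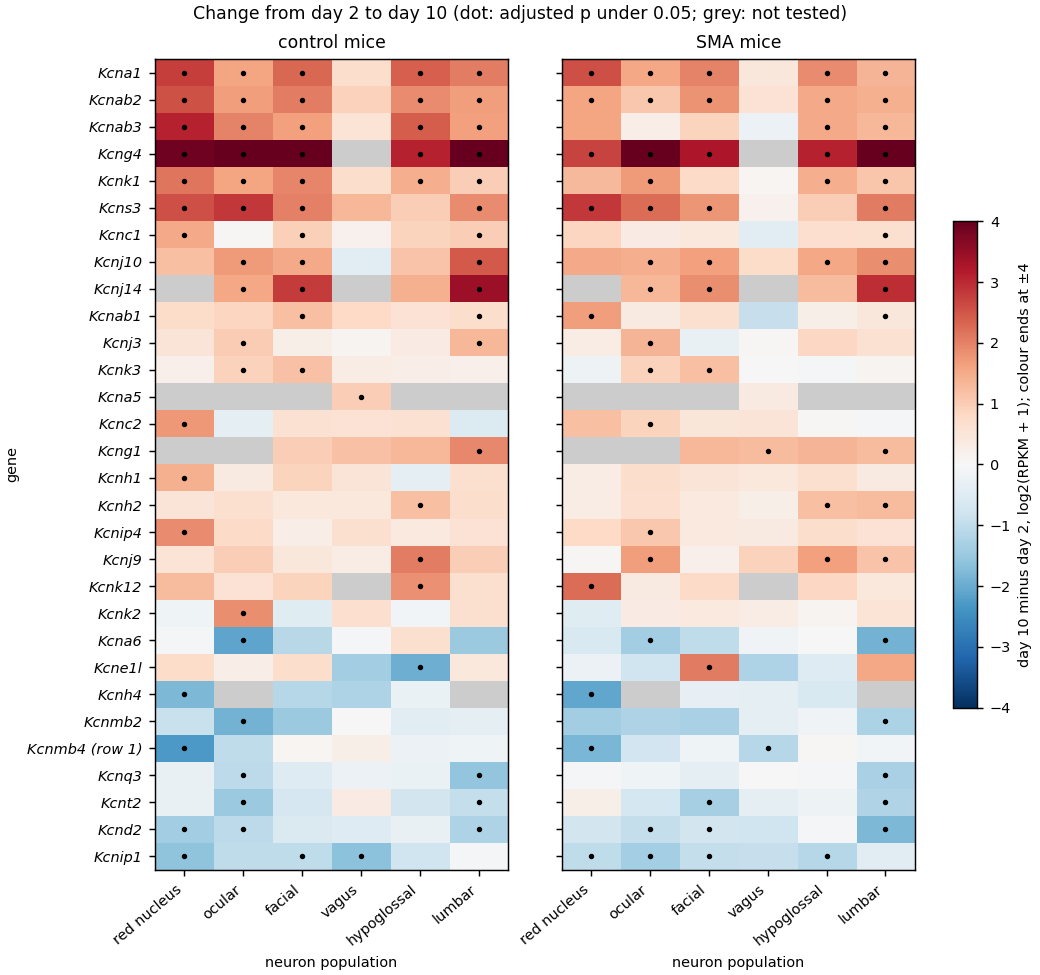
Difference between day 10 and day 2 in log2(RPKM + 1) (colour) for members called in at least 1 control population (rows), by population (columns), in control mice (left) and SMA mice (right); a dot marks an adjusted p under 0.05 and grey a gene not tested. The rows at the top, from Kcna1 to Kcnk1, carry dots in 5 control columns, and the vagus column has 2 dots among controls.

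The SMA mice gave the same comparison in animals that share no sample with the controls. Library numbers and oligodendrocyte markers ran with age in these mice too, as given below. Over the 6 populations 54 of 389 member results rose from day 2 to day 10 and 23 fell, beside 3.77% and 3.63% of all gene results. Of 73 control calls 52 were also called in SMA mice in the same population and direction, which is 71.2% of the control calls and 67.5% of the 77 SMA calls. The same shares over all genes were not computed, so these cannot be read as particular to the members. Kcna1, Kcnab2 and Kcng4 rose in the same 5 populations in both genotypes. Kcng4 in SMA lumbar neurons had a highest value of 1.54 RPKM at day 2 and 58.4, 67.5, 74.1, 75.5 and 80.5 at day 10. The vagus shared 0 calls: in SMA mice Kcng1 and Kcnk13 rose there and Kcnmb4_ann1 and Kcnn2 fell. Lumbar SMA neurons had 5 further falls, those of Kcna6, Kcnd3, Kcnma1, Kcnmb2 and Kcnv1. This comparison was added after the control results were seen.

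Genes outside the Kcn family that act on these currents were followed as a list. The list of 27 held Kv4, Kv2 and BK auxiliary subunits, sulfonylurea receptors, HCN channels, proteins that cluster Kv1 at the node, and C bouton and axon initial segment proteins. In controls 2 of 23 tested rose in the red nucleus and 1 fell (5.72% and 5.42% of all genes), and 3 of 25 rose in ocular neurons and 1 fell (4.38% and 3.64%). In facial neurons 4 of 24 rose (2.6% of all genes), in hypoglossal neurons 3 of 23 (2.43%), and in lumbar neurons 3 of 25 with 1 fall (4.76% and 7.25%). In the vagus 0 of 25 passed by limma (0.581% and 0.437%), and 4 had an unadjusted p under 0.05. Adam23, which binds LGI proteins beside Kv1, rose in ocular, facial, hypoglossal and lumbar neurons by 1.18 to 1.52. Adam22 rose in hypoglossal and lumbar neurons (1.94 and 1.70), Chrm2, the muscarinic receptor of C boutons, in facial and lumbar neurons (1.51 and 0.84), and Amigo1, a Kv2 partner, in ocular and facial neurons (1.78 and 1.38). Lrrc52, a BK gamma subunit, rose in ocular neurons by 3.54 ± 0.53. The falls in controls were Hcn3 in the red nucleus by 1.2 ± 0.32, Ank3 in ocular neurons by 0.79 ± 0.24 and Lgi1 in lumbar neurons by 1.13 ± 0.38. Lgi1 encodes an LGI protein, so the genes of this group did not all change in 1 direction. Between genotypes, 1 gene of the list was called: Chrm2 in facial neurons at day 10, with 29.0, 29.6, 35.1 and 38.2 RPKM in controls and 7.56, 9.72, 13.1 and 13.1 in SMA mice (-1.54 ± 0.29, adjusted p 0.0054 in limma).

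Transcripts of oligodendrocytes rose over the same days in the control populations other than the vagus. The sum of 6 oligodendrocyte markers went from 38.1 ± 14.3 RPKM (SD, n = 4) at day 2 to 861 ± 320 (SD, n = 4) at day 10 in lumbar controls, and from 83.9 ± 29.1 (SD, n = 3) to 61.1 ± 22 (SD, n = 4) in the vagus. In SMA mice it went from 42.5 ± 36.2 (SD, n = 7) to 794 ± 133 (SD, n = 5) in lumbar neurons. In the SMA vagus it went from 56.9 ± 12.7 (SD, n = 6) to 76.5 ± 17.3 (SD, n = 5). Control means of the oligodendrocyte sum went from 22.6 to 462 RPKM in red nucleus and from 63.1 to 524 in hypoglossal neurons. Kcnj10, which glia express, had no call in these 2 populations in controls. It rose in lumbar (2.44), ocular (1.71) and facial neurons (1.52). The astrocyte sum went from 1664 to 1121 RPKM in lumbar, 1417 to 1762 in ocular and 1358 to 1407 in facial controls. The part of glial transcripts in Kcnj10 and in the other rises was not tested.

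Library numbers in the labels also ran with age. Controls carried numbers 86 to 211 at day 2, 44 to 128 at day 5 and 213 to 258 at day 10, and what the numbers stand for is not given in the sources used here. SMA libraries carried 111 to 189 at day 2, 33 to 126 at day 5 and 190 to 260 at day 10. Day 2 control mice 240 and 244 carried numbers 202 to 211, next to those of day 10. Kcna1 had 22 and 29.8 RPKM in their lumbar samples. The part of library number in the rises was not tested. Without mouse 252, whose red nucleus library was the shallowest, 14 members were called in the red nucleus.

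No member tested passed the threshold between SMA and control mice in any population at any age. In each population 16 to 26 members did not pass the filter and had no such test. The 18 contrasts held 1167 member results with 0 calls by limma, and 92 (7.88%) had an unadjusted p under 0.05, beside 7.10% of all gene results. The share of all gene results with an adjusted p under 0.05 was 0.0415% at day 2, 0.0273% at day 5 and 0.318% at day 10. With the mouse as a replicate block, in 1 fit of all 160 samples, there was 1 call at each age. These were Kcnip4 in the red nucleus at day 2, Kcnj11 there at day 5 and lumbar Kcnn4 at day 10. Kcnj11 and Kcnn4 did not pass the filter of any single-population fit. The change of the genotype difference between day 2 and day 10 also had 0 member calls, beside 0.0415% of all gene results, with 33 of 389 at an unadjusted p under 0.05. Groups of 3 to 7 mice limit this: a gene that differs by less than the spread between mice could not be called, and 0 calls does not show equal levels.

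The lowest adjusted p belonged to Kcng4 in facial neurons at day 10, and no value of SMA mice there reached a control value. Control facial samples had 18.1, 20.8, 24.9 and 26.6 RPKM and SMA samples 4.96, 6.13, 11.7 and 15.4, a difference of -1.27 ± 0.33 with an adjusted p of 0.076 in limma. Without mouse 258 that p was 0.038, and over the other alternatives it ran from 0.063 to 0.72. In ocular neurons control values of 72.1, 82.9, 88.0 and 88.6 stood beside SMA values of 31.7, 32.1, 33.9, 69.6 and 72.4 (-0.88 ± 0.50, adjusted p 0.92 in limma). The differences were -0.72 ± 0.42 in red nucleus, -0.27 ± 0.46 in lumbar and -0.07 ± 0.31 in hypoglossal neurons.

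Kcna1 and Kcnab2, which also rose with age, had no call either. Kcna1 had control means of 72.6, 83.1, 57.3, 49.5 and 123 RPKM in red nucleus, ocular, facial, hypoglossal and lumbar neurons, and SMA means of 57.2, 62.7, 45.9, 42.5 and 98.8. The differences were -0.43 to -0.24, and the groups did not overlap in red nucleus, facial and lumbar neurons. Kcnab2 differed by -0.60 to 0.01 over the 6 populations. Kcnq3, which fell with age in lumbar and ocular neurons, had differences of 0.25 to 0.82 in the 6 populations. These contrasts share the day 10 controls with the maturation contrasts, so each value of a control mouse moves both. The median member difference at day 10 was 0.20 in the red nucleus and 0.02 in the hypoglossal nucleus, where the median of all genes was 0.13 and 0.08. It was below 0 in ocular (-0.13), facial (-0.15), lumbar (-0.16) and vagus neurons (-0.06), where the median of all genes was 0.06, 0.01, 0.05 and 0.02.

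**Figure D5:**
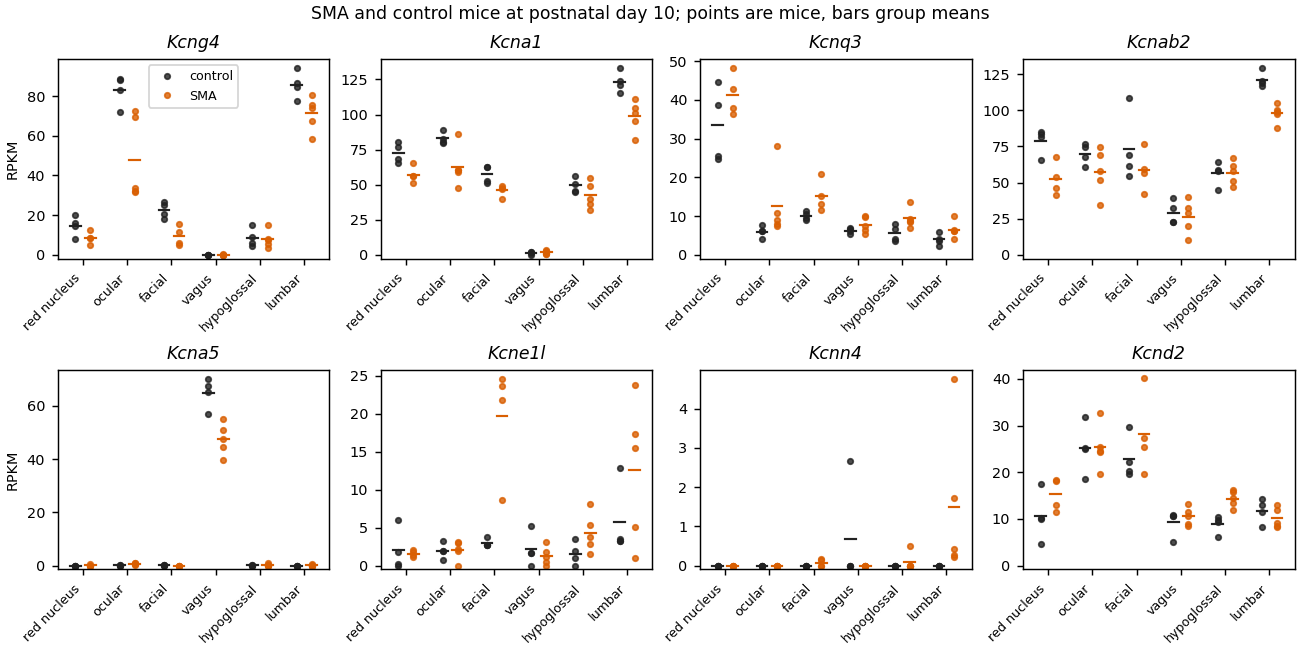
RPKM of 8 members (panels) in each mouse at day 10 (points, with bars at group means) by population and genotype. Kcng4 in the facial nucleus and Kcna5 in the vagus have control points above every SMA point, and Kcne1l in the facial nucleus has SMA points above every control point, while none of these passed the threshold.

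Apart from Kcng4 in the facial nucleus, the smallest unadjusted p of each population at day 10 belonged to the following members, given with facial Kcne1l, which had the second smallest there. Kcna5 in the vagus had 56.8, 65.3, 67.5 and 70.1 RPKM in controls and 39.8, 44.7, 47.7, 50.9 and 55.2 in SMA mice, with an adjusted p of 1 in limma at a difference of -0.44. Kcne1l, a KCNE accessory subunit, had 2.65, 2.77, 2.77 and 3.75 RPKM in facial controls and 8.67, 21.8, 23.6 and 24.6 in SMA mice (2.28 ± 0.69, adjusted p 0.175 in limma). Lumbar Kcnip2 had 0, 0.119, 0.152 and 0.947 RPKM in controls and 0.294, 1.68, 1.68, 2.33 and 3.45 in SMA mice. Ocular Kcnq3 had 4.05, 6.05, 6.13 and 7.71 RPKM in controls and 7.54, 7.89, 9.10, 10.7 and 28.2 in SMA mice, a difference of 0.82 ± 0.29. The highest value was that of mouse 250, whose ocular sample held red nucleus transcripts, and without it the difference was 0.51 (adjusted p 0.87 in limma). The part of red nucleus transcripts in it was not tested. Hypoglossal Kcnd2 differed by 0.65 ± 0.25 and red nucleus Kcnk12 by 0.92 ± 0.44. Over the 6 populations the groups did not overlap in 20 of 389 member results (5.14%) at day 10, beside 3.56% of all gene results. By population these were 2 of 66 in the red nucleus (4.56% of all genes), 3 of 59 in ocular (3.42%), 6 of 69 in facial (5.5%), 3 of 63 in vagus (1.09%), 3 of 67 in hypoglossal (2.52%) and 3 of 65 in lumbar neurons (4.23%).

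The genotype difference at day 10 itself differed between populations for 1 of 85 members tested, beside 0.579% of all genes. It was Kcnn4, the calcium-activated channel of microglia and blood cells (limma F test, F 5.79, adjusted p 0.021). Kcnn4 did not pass the filter in any single population, so it had no genotype test within lumbar neurons in the main fits. Lumbar SMA samples had 0.222, 0.272, 0.424, 1.73 and 4.75 RPKM and lumbar controls 0 in all 4 mice. In lumbar SMA libraries 3 reads of Kcnn4 would be 0.0744 to 0.253 RPKM at the estimated depths, so the lowest values are near that floor. Elsewhere at day 10 the highest value was 2.66, in a vagus control, and most samples were at 0. Without SMA mouse 249 or 258, or control mouse 254, it no longer passed. The summed microglial markers of lumbar neurons at day 10 were 10.1 ± 5.93 RPKM (SD, n = 5) in SMA mice and 9.65 ± 6.57 (SD, n = 4) in controls. The summed vessel markers there were 23.3 ± 8.05 RPKM (SD, n = 5) in SMA mice and 11.7 ± 3.92 (SD, n = 4) in controls, and their part in the Kcnn4 difference was not tested.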

How the data were processed

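RNA of laser-captured neurons was made into libraries with Smart-seq2 and Tn5 tagmentation, per the labels' protocols. The authors deposited 1 table of RPKM. The submitters' processing notes name STAR 2.4.1c and the builds mm10 and hg19; counting and strand are not given in the sources used here. The RPKM of libraries of 1 mouse and population were averaged (168 libraries, 160 samples), and the mouse was the replicate. Tests used limma 3.58.1 (trend) in R 4.3.3 on log2(RPKM + 1), two-sided. A gene entered a fit if its RPKM was 1 or more in at least as many samples as the fit's smallest group has. P-values were adjusted by Benjamini-Hochberg over all genes of a contrast, with a threshold of 0.05. A fold on this scale understates the change of low genes. One fit per population held its 6 groups of genotype and age, 1 fit the 72 control samples, and 1 fit all 160. The fit was tested on simulated data. Depth was an estimate, which took the commonest low value of RPKM times gene length in single-transcript genes as 1 read. It ran from 0.342 to 16.3 M reads. Of low values of these genes 78.5% lay within 0.05 of a whole read, so counts were not recovered.

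Populations of the same mouse share an animal: the deviations of such pairs correlated at a median of 0.0328 (339 pairs, 26 over 0.1), so the mouse as replicate block was an alternative. The others were a pseudocount of 0.1, no filter, quantile normalization, each library as its own sample, only the groups compared, and leaving out each mouse. Members, lists and tests were chosen with earlier results of these data known, and the SMA maturation contrast was added after the control results were seen. Members were named from a list of roles, the 10 highest control means, up to 3 differences in each direction per population, up to 4 rises and 4 falls per population reaching 5 RPKM, every genotype or interaction call, the smallest genotype p per population at day 10, and those nearest the membership threshold. Of the members, 2 are counted but not reported here by name. Other called members named were chosen after their values were seen.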

Additional observations from a re-analysis of the deposited data

Results flagged for a closer look

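For 9 members with the most marked patterns, each group of 4 or more mice with a mean of at least 1 RPKM was searched for a highest or lowest mouse far from the rest, by its gap to the nearest mouse as a share of the group's range. Of 209 groups 13 stood out, and chance gives about 1 in 20.

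Control mouse 254 at day 10 was one of the mice that recurred. Its Kcng1 was 36.9 RPKM in vagus neurons, with 25 the next (share 0.832), and 9.95 in lumbar neurons, with 4.63 the next (0.904). Its vagus Kcnd2 was low, at 5.11 against 10.6 (0.952). Control mouse 252 at day 10 was high in Kcnip4, at 67.7 against 44.6 RPKM in hypoglossal neurons (0.836) and 47.7 against 36.8 in lumbar neurons (0.855). SMA mouse 258 was low in hypoglossal Kcnip4 at day 10, at 22.8 against 54.9 (0.796), and SMA mouse 250 in vagus Kcnip4, at 178 against 239 (0.717).

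Kcnq3 was high in ocular neurons of SMA mouse 250 at day 10, at 28.2 against 10.7 RPKM (0.846), and of SMA mouse 207 at day 2, at 18.0 against 13.0 (0.645). It was high in hypoglossal neurons of SMA mouse 77 at day 5, at 12.2 against 7.28 (0.940), and of SMA mouse 211 at day 2, at 16.4 against 10.3 (0.668). Kcnj14 was high in hypoglossal neurons of SMA mouse 16 at day 2, at 4.96 against 1.58 (0.709). Kcnab2 was low in lumbar neurons of SMA mouse 31 at day 5, at 32.6 against 50 (0.867).

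The change from day 2 to day 10 differed between control populations by the F test of the interaction for members that include Kcng4 (F 35.3), Kcnj14 (14.7), Kcna1 (6.13), Kcnj5 (5.65), Kcng2 (5.34), Kcnc2 (5.2) and Kcna5 (4.75). Kcna5 entered that fit through its vagus samples alone, so its F is a description. The genotype difference at day 10 differed between populations for Kcnn4 (F 5.79).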

How the results depend on the processing

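Of 95 results on single members, 80 kept their direction and side of the threshold in every alternative run. Over 1660 alternatives of the 95, 1584 kept both, 75 lost the call, 1 gained it and 0 reversed. Kcnip1 in the vagus lost its call in 10 alternatives and kept it in 3. Control maturation calls in the vagus were 2, and were 1 with a pseudocount of 0.1, without the filter or with quantile normalization, 0 with only the groups compared, 4 with the replicate block, and 0 to 2 without single mice. Members passing the population by age test were 8, and 4 to 11 without single mice. Genotype calls were 0 at each age: at day 10 there was 1 with only the groups compared (facial Kcne1l), 1 with the replicate block (lumbar Kcnn4), and 0 to 1 without single mice (facial Kcng4 without mouse 258). The replicate block gave 1 call at day 2, 1 at day 5 and 1 for genotype by age. The Kcnn4 call, 1 member passing genotype by population at day 10, was 0 to 1 without single mice. The run with the block changed the other counts by less than 1.5 times, to 21 from 15 in the red nucleus at most. For contrasts within a population, block, filter and shared spread changed together in that run. The causes were not tested. At the estimated depth, 3 reads of Kcna5 in the shallowest red nucleus control library would be 3.07 RPKM. Absence below that cannot be read there.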
